A study of Mus musculus with 2 samples.

Results

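Immediate early genes are genes that cells switch on within minutes of a stimulus, from factors already present and without new protein synthesis. Of these genes 10 were followed in the mouse lens: Fos, Fosb, Jun, Junb, Egr1, Egr2, Ier2, Atf3, Zfp36 and Klf2. The members were taken as every probe set, a group of short probes on the array, that the platform annotation gives to exactly 1 gene symbol among these names. The rule found 12 probe sets for the 10 genes, out of 34958 probe sets with 1 symbol for 18194 genes. Jun (1417409_at and 1448694_at) and Egr2 (1427682_a_at and 1427683_at) had 2 probe sets each. The other 8 genes had 1: 1423100_at for Fos, 1422134_at for Fosb, 1415899_at for Junb, 1417065_at for Egr1, 1416442_at for Ier2, 1449363_at for Atf3, 1452519_a_at for Zfp36 and 1448890_at for Klf2.

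Lenses of wild-type mice, strain given as C57/BL6, were pooled at postnatal day 7 (P7) and at postnatal day 60 (P60). No agent or genetic change is given for either age, and the sources used here do not say how many animals were pooled or of which sex. Each pool was read on 1 array, so there is 1 sample per age, no replicate and no test between the ages. In RNA of whole lenses, a change in the number of cells of a type and a change in RNA per cell cannot be told apart. The labelled tissue was checked against lens markers: 11 of 12 lens genes had a probe set of their own, and all 11, Cryaa, Mip and Lim2 among them, lay above the floor on both arrays. Of these 11, 10 were within 2-fold between the ages. The other, Foxe3, was 2.61-fold lower at P60, from 288 to 110, which is close to the floor.

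The lens grows through life from an epithelium whose cells divide and then turn into fibre cells. Growth factors of the eye's fluids act on these cells through receptor kinases and the ERK kinases. ERK signalling reaches the promoters of immediate early genes through serum response factor (Srf) and its ETS partners, bound at CArG boxes, while cAMP and calcium act through CREB at the cAMP response element (CRE). Most members encode transcription factors: Fos and Jun proteins pair into AP-1, and Egr proteins bind GC-rich sites.

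Promoter sequence is shown for Fos and Klf2, at the ends of the range of ratios, for Fosb and for other members with matches to these sites, so that the sites can be seen beside the values. RefSeq windows on GRCm38.p6, from 250 bases before to 50 after an annotated start, were found for 8 members, all but Egr1 and Ier2. Egr2 had 5 windows for different annotated starts, and the other 7 had 1 window each. The stretch shown lies in 3 of the overlapping Egr2 windows, with its CArG box 72, 73 or 133 bases before the start. Only bases before the start are printed, from 5′ to 3′ on the gene's strand. Capitals mark matches on either strand to the CArG box, the EGR site GCGGGGGCG and the TATA box, read as TATAAA. They also mark the ETS core, which is spelled CCGGAAG. The core of the CRE, TGACG, is in capitals too and reads CGTCA where it lies on the opposite strand. In Jun the capitals mark TGACATCA, an AP-1-like site. The first 3 lines hold the 250 bases before the start of Fos, the member with the highest ratio, of its relative Fosb, and of Klf2, the member with the lowest.
Fos, chr12:85473640-85473889, + strand: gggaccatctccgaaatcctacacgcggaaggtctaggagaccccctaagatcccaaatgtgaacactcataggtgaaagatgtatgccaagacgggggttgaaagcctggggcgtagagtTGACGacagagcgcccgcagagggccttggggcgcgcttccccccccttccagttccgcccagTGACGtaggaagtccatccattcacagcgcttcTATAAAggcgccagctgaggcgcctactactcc
Fosb, chr7:19310046-19310295, - strand: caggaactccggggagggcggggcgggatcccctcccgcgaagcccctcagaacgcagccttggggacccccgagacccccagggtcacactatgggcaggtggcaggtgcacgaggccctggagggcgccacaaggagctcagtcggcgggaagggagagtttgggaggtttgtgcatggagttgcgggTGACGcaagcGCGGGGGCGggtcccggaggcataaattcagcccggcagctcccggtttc
Klf2, chr8:72318812-72319061, + strand: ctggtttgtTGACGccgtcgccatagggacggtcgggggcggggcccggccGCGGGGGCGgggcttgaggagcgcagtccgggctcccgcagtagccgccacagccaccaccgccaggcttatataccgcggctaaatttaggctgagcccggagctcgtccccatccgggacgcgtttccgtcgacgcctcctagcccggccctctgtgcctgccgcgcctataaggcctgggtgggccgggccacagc
Jun, chr4:95052243-95052292, - strand: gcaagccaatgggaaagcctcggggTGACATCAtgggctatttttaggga
Junb, chr8:84978829-84978878, - strand: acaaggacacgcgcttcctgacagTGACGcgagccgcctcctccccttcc
Egr2, chr10:67537744-67537833, + strand: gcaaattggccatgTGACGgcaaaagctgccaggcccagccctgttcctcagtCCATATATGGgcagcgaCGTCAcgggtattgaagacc
Atf3, chr1:191183334-191183373, - strand: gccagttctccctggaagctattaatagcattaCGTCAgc
Zfp36, chr7:28379264-28379353, - strand: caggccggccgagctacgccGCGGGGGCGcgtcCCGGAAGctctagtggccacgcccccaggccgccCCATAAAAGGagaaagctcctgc

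The EGR site was in 3 of the 8 members (Fosb, Zfp36 and Klf2), against 3.31% of the 27025 genes of the table and 4.82% of the 11128 windows within the members' range of GC content, 56.0% to 72.0%. The CArG box was in Egr2 and Zfp36, against 1.81% of genes and 1.29% of windows in that GC range. The complete CRE TGACGTCA, the AP-1 site TGACTCA and the other EGR form GCGTGGGCG were in none of the 8, against 2.03%, 5.95% and 0.707% of genes. In windows of that GC range these shares were 3.24%, 3.41% and 1.01%. The core TGACG, which lies inside the CRE and was added to the search after the windows were read, was in 6 of 8 (Fos, Fosb, Junb, Egr2, Atf3 and Klf2), against 23.0% of genes and 30.7% of windows in that GC range. TGACATCA was added in the same way and was in Jun only among the 8, against 4.18% of genes and 1.44% of windows in that GC range. TATAAA was in Fos, 33 bases before the start, and in Junb at the annotated start itself. It was in 15.7% of genes and 4.65% of windows in that GC range. ETS core letters were in Zfp36 only among the 8, against 9.93% of genes and 16.4% of windows in that GC range. These matches are letters in a window and do not show that a factor binds there. Sites outside the windows were not searched, so a missing match does not show that a gene lacks the site.

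Values are MAS5 signals on a linear scale, as deposited. The floor was set at the median over all values of the pair of arrays, 103.9, and values under it were raised to it before the log2 ratio of P60 over P7 was taken. A ratio with 1 age under the floor is a bound, written as "at least". A gene counted as measured when it exceeded the floor on at least 1 array, and as higher or lower from 2-fold on. As a guide to error within the arrays, probe sets that share a gene differed in log2 ratio with a pooled SD of 0.58, over 4239 genes. That SD holds no variation between mice, pools or arrays.

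Fos and Egr1 were more than 2-fold higher at P60, Klf2 was more than 2-fold lower, and the other 7 members were within 2-fold. All 10 exceeded the floor on at least 1 array, but 3 (Fosb, Egr2 and Atf3) did so at P60 only and 1 (Klf2) at P7 only, so the direction of these 4 follows from the filter itself. Of 13029 measured genes 11.5% were 2-fold higher and 9.44% 2-fold lower, beside 2 of 10 and 1 of 10 members. These shares of the members are not far from the background, and the 10 genes did not move together: their floored log2 ratios ran from -1.39 to 1.49, with a median of 0.29 beside 0.02 over all measured genes. Of the 6 members above the floor on both arrays, 4 were higher and 2 lower at P60. When both arrays were brought to the same median instead of the deposited scale, the median of all genes rose to 0.27 and 17.3% were called higher and 6.08% lower, while the members' counts stayed at 2 and 1.

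**Figure D1:**
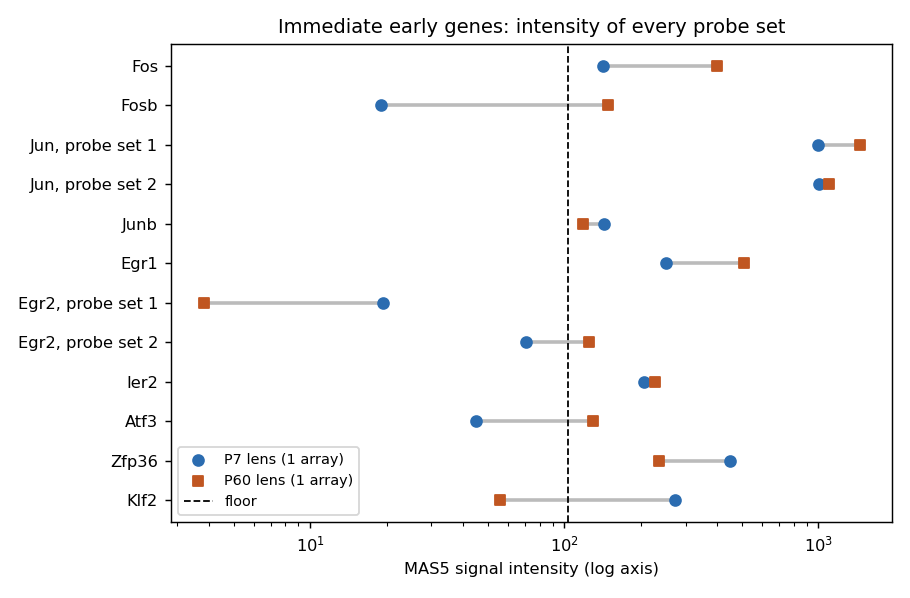
MAS5 signal intensity (log axis) of all 12 probe sets of the 10 genes, with P7 as circles, P60 as squares and the floor of 103.9 as a dashed line, 1 array per age. Fos and Egr1 lie above the floor on both arrays and further right at P60, whereas Klf2 crosses the floor from right to left.

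Fos, which encodes a subunit of AP-1 that needs a Jun partner to bind DNA, had an intensity of 142 at P7 and 399.8 at P60. The P60 array was thus 2.82-fold higher, a log2 ratio of 1.49, which is more than the probe-set SD. Of all measured genes 4.997% had a ratio at least as high, and among genes whose brighter array lay between 2 and 4 times the floor 14.1% were 2-fold higher. The P7 value of Fos was 1.37 times the floor, so its fold is near a bound. Fosb, a close relative of Fos that pairs with the same Jun proteins, was 19.1 at P7, under the floor, and 149 at P60, at least 1.44-fold higher. The other Fos family genes, Fosl1 and Fosl2, also read higher at P60. Fosb and Fosl2 exceeded the floor at P60 only, so their direction follows from the filter. The P7 value of Fosl1 lay just above the floor. Fosl1 was 108 and 242 (2.24-fold higher), and Fosl2 was 55.0, under the floor, and 1242, at least 11.95-fold higher, with a log2 ratio of at least 1.48 on its other probe set.

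Jun, the AP-1 subunit that can pair with itself as well as with Fos, was well above the floor on both of its probe sets. These read 996 and 1007 at P7 and 1452 and 1103 at P60, with log2 ratios of 0.54 and 0.13. Both are within the SD between probe sets, although with both arrays at the same median the brighter probe set had 0.81, beyond it. Junb, which often opposes Jun in cell growth, was 144 at P7 and 118 at P60, a log2 ratio of -0.28 close to the floor and within that SD. Jund, the more constantly expressed relative, was 3596 at P7 and 7149 at P60, a log2 ratio of 0.99.

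Egr1, a zinc-finger factor induced by growth signals, read 251 at P7 and 509.6 at P60. That is 2.03-fold higher, a log2 ratio of 1.02, and 11.1% of measured genes had one at least as high. It only just passed the 2-fold mark. Among genes whose brighter array lay between 4 and 8 times the floor, 13.9% were 2-fold higher. Egr2, its relative known from hindbrain and myelinating cells, gave no clear value. Its brighter probe set was 70.4 at P7 and 125 at P60, at least 1.20-fold higher, and the other was under the floor on both arrays with 19.3 and 3.81. Egr3 was 357 at P7 and 322 at P60, a log2 ratio of -0.15 within the SD between probe sets. Egr4 went from 180.2 to 99.0, which is under the floor (at least 1.73-fold lower). Because Egr4 exceeded the floor at P7 only, its direction follows from the filter. Nab2, a corepressor that binds Egr1 and is itself induced by it, was 152 at P7 and 423 at P60, 2.78-fold higher, and its relative Nab1 had a log2 ratio of 0.87 (0.09 on its other probe set).

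Ier2, a small nuclear protein named for its early induction, read 207 at P7 and 228 at P60. Its log2 ratio of 0.14 was within the SD between probe sets. Atf3, a stress-induced factor of the ATF family, was 44.8 at P7, under the floor, and 129.8 at P60. It was at least 1.25-fold higher, a bound that says little, because the P60 value itself lay just above the floor.

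Zfp36 encodes tristetraprolin, which binds AU-rich elements and speeds the decay of short-lived mRNAs, those of immediate early genes included. It was 448 at P7 and 236 at P60, 1.90-fold lower with a log2 ratio of -0.93, more than the probe-set SD and short of 2-fold. Of measured genes 10.9% had a ratio at least as low. Its paralogue Zfp36l1 was 1189 and 228, 5.21-fold lower (its other probe set at -1.13), while Zfp36l2 had a log2 ratio of 0.35.

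**Figure D2:**
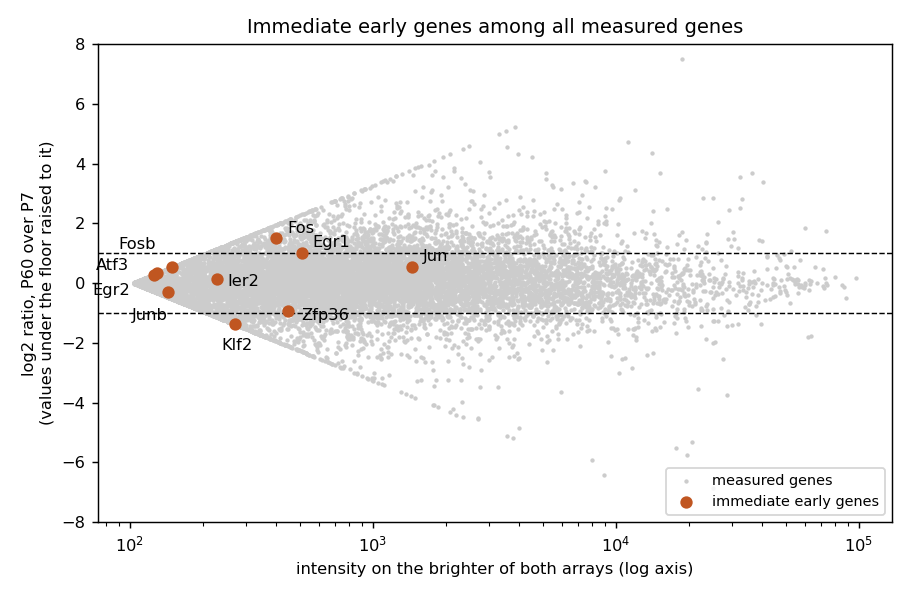
Log2 ratio of P60 over P7, on floored values, against the intensity on the brighter array (log axis) for all 13029 measured genes (grey) and the 10 immediate early genes (orange), with dashed lines at 2-fold. The members lie inside the cloud of other genes, from -1.39 for Klf2 to 1.49 for Fos, and the straight edges at low intensity come from the floor.

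Klf2, a zinc-finger factor best known from endothelial cells, where blood flow induces it, was the member furthest below its P7 value. The P7 array read 272 and the P60 array 56.0, which is under the floor, so Klf2 was at least 2.62-fold lower. Of measured genes 4.45% had a ratio as low or lower. Among genes whose brighter array lay between 2 and 4 times the floor 18.2% were 2-fold lower. Vascular endothelial markers were lower in the same pool. Of 15 such genes 13 were measured, 8 were at least 2-fold lower and none higher, and their summed intensity was 5560 at P7 and 1443 at P60. At P7 12 of them were above the floor and at P60 4, while Pecam1 and Tie1 were under the floor on both. For 9 of the 13, as for Klf2, only the P7 value exceeded the floor, so their direction follows from the filter. The part of these cells in the value of Klf2 was not tested. Of the other Klf genes listed only Klf9 passed 2-fold, at 1143 and 2588 (2.26-fold higher, with 7 probe sets from -0.38 to 1.18). Klf4, a relative also present in epithelia, was 417 at P7 and 745 at P60, a log2 ratio of 0.84, Klf10 had one of -0.01, and Klf6 had -0.35, with other probe sets up to 0.46. Mapk7, the ERK5 kinase that acts upstream of Klf2 in endothelium, was under the floor at P7 (48.9) and 323 at P60, at least 3.10-fold higher. As Mapk7 exceeded the floor at P60 only, its direction too follows from the filter.

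**Figure D3:**
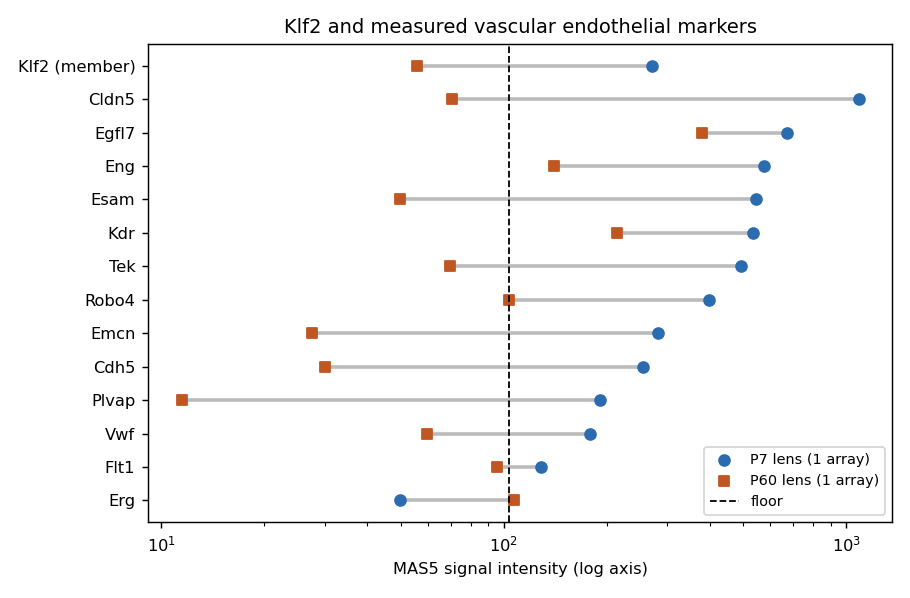
MAS5 signal intensity (log axis) of Klf2 and of the 13 measured vascular endothelial markers at P7 (circles) and P60 (squares), with the floor of 103.9 dashed and 1 array per age. Klf2 and 12 of the 13 markers lie further left at P60, and Erg is the exception; for Klf2 and 9 of the markers this follows from being above the floor at P7 only.

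The wider pathway was described with 6 lists, of which 86 of 97 genes were measured. Of these 18 were higher by 2-fold or more and 11 lower, which is 20.9% and 12.8%, beside the 11.5% and 9.44% of all measured genes. The other AP-1 subunits and their dimer partners held 5 higher and 1 lower of 13, with a median log2 ratio of 0.73. Fosl2 and Jdp2, a repressor that pairs with Jun, were the highest, the latter at 394 and 1707 (4.34-fold, with its other probe set at -0.39). Atf4, the factor of the integrated stress response, was 9530.2 at P7 and 3931 at P60, 2.42-fold lower, and Mafg had a log2 ratio of -0.90. With a pseudocount of 50 and no floor only 2 AP-1 genes were higher.

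Among other inducible transcription factors 3 of 12 were higher and 2 lower (median -0.07). Bhlhe40, a repressor that responds to many stimuli, was 4.74-fold higher and Nfil3 at least 2.29-fold. Ifrd1 was 6.25-fold lower (1637 against 262) and the orphan receptor gene Nr4a2 at least 2.15-fold. Of the inducible genes that do not encode transcription factors 2 of 19 were higher and 6 lower. Ccn2, a matrix-associated growth factor target also called CTGF, was 919 at P7 and 5692 at P60, 6.19-fold higher, and the kinase gene Sgk1 was 2.60-fold higher. Gadd45g, a stress sensor of growth arrest, was 3078 and 551, 5.58-fold lower, next to Zfp36l1. Its relative Gadd45b was 3.88-fold lower (probe sets from -1.96 to -0.78) and Ier5 2.90-fold, while Gadd45a, at 0.32, did not share that direction.

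Feedback inhibitors went both ways, with 2 of 12 higher and 2 lower and a median of -0.10. The phosphatase gene Dusp8 was 2.57-fold higher (probe sets from -1.06 to 1.36), next to Nab2, whereas Dusp4, which removes phosphate from ERK, was 3.45-fold lower and Spry4 at least 2.23-fold. Dusp1, itself a classic immediate early gene, had a log2 ratio of -0.37. Of the kinases and promoter-bound factors upstream 4 of 22 were higher and none lower, with a median of 0.57. The JNK gene Mapk10 was 4.70-fold higher, with 0.70 on its other probe set, and the p38 gene Mapk14 3.38-fold (probe sets from -0.38 to 1.76). Araf had a log2 ratio of -0.80 (5 probe sets from -0.80 to -0.08). Elk3 had -0.55, but its other probe set had -1.25, which is more than 2-fold lower. Srf itself was 365 and 676, a log2 ratio of 0.89, with 1.51 on its other probe set.

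**Figure D4:**
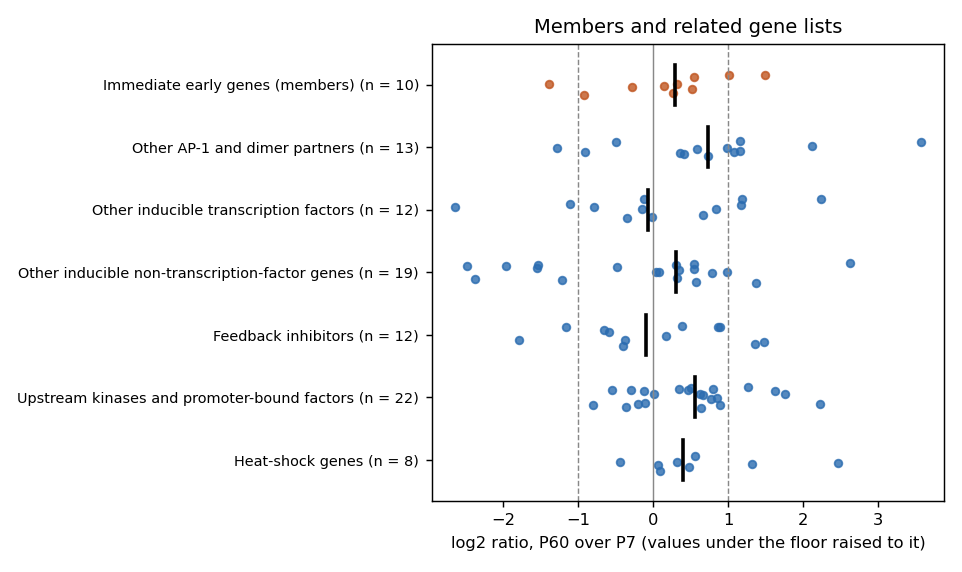
Log2 ratios of P60 over P7, on floored values, for the 10 members (orange) and the measured genes of 6 related lists (blue), with the median of each as a black bar and dashed lines at 2-fold. Points of each list lie on both sides of 0, and the medians run from -0.10 for feedback inhibitors to 0.73 for AP-1 partners.

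Immediate early genes are known to respond to the handling of tissue, as heat-shock genes do, so heat-shock genes and markers of other tissues were set beside them. Of 8 heat-shock genes 2 were higher and none lower: Hspa1b was 503 and 2774, 5.51-fold higher (probe sets from 2.46 to 3.62), and Hspa1a 2.50-fold, while Dnajb1 (0.06) and Hspa5 (-0.44) were within 2-fold. Fibroblast markers had a summed intensity of 615 at P7 and 5397 at P60, carried by Fmod and Col1a2. Col3a1 went the other way, from 158 to 25.4, which is under the floor (at least 1.52-fold lower). Col1a1, Dcn and Lum were under the floor on both arrays. Summed macrophage and leukocyte markers were 2145 and 1899. Of the 10 measured 1 was higher, Cd74 (2.93-fold), and 1 lower, Fcer1g (at least 2.10-fold). Ptprc, Cd68, Aif1 and Itgam were under the floor on both arrays. Pigment cell markers summed to 2155 and 1038, retinal markers to 2899 and 1951, and pericyte markers to 11017 and 6166. The retinal and pericyte sums hide opposite moves too. Rgs5 was 85.9-fold lower, with a P60 value of 104 at the edge of the floor and 4 probe sets from -6.43 to -2.19. Pdgfrb was 9.72-fold higher (log2 ratio of 2.04 on its other probe set). Gnat1 was at least 7.59-fold higher while Pdc and Nrl were 4.44-fold and 3.25-fold lower. Corneal markers summed to 328 and 18990.0, of which Aldh3a1 alone made 18639, with Krt12 under the floor on both. The 2 measured erythroid genes, Hba-a2 and Hbb-b2, were under the floor at P60. The part of these cells, or of handling, in the member values was not tested.

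The median intensity was 113 at P7 and 93.9 at P60, and 52.2% and 47.8% of probe sets exceeded the floor. The 5′ over 3′ signal of Actb, which falls as RNA or cDNA is shortened, was 0.785 on the first and 0.606 on the second, and that of Gapdh 1.39 and 1.29. For the spike-ins Dap and Phe it was lower by more, from 0.158 to 0.0439 and from 0.836 to 0.372. The BioB spike-in, a bacterial control transcript added at low level, read 4.71-fold to 9.16-fold higher at P60 on its 6 probe sets (from 170 to 539 at P7). Log2 ratios of the brighter BioC, BioD and Cre spike-ins ran from -0.64 to 0.35 over 12 probe sets. Those of the Lys spike-in, from 358 to 1062 at P7, ran from -0.46 to 0.39, and the lowest were -1.87 for Dap, -1.48 for Phe and -1.08 for Thr. Of the 10 members all but Jun lay in or below the intensity range that BioB had at P7, those with ratios below 0 (Klf2, Zfp36 and Junb) included. Genes whose brighter array lay between 2 and 4 times the floor had a median log2 ratio of -0.02. BioB is not matched by that band, as it read 1292 to 2541 at P60. Genes between 8 and 16 times the floor had a median of 0.13, and those over 16 times 0.09. Whether BioB and the member values share a source was not tested.

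**Figure D5:**
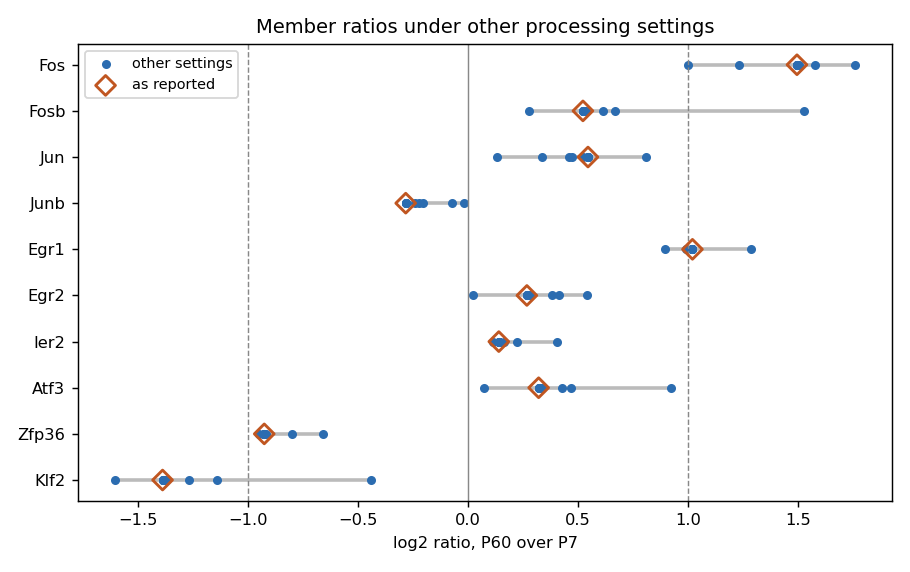
Log2 ratio of P60 over P7 for each member as reported (open diamonds) and under the other processing settings (blue points), with dashed lines at 2-fold. The side of 0 of Fosb, Egr2, Atf3 and Klf2 follows from the floor in the floored settings and is no sign of stability. Fos, Egr1 and Klf2 each reach the inner side of the 2-fold line in at least 1 setting.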

How the data were processed

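RNA of pooled lenses was labelled with biotin after amplification and hybridised to 1 array per age, per the labels' protocols. The deposited values are MAS5 signal intensities, 1 per probe set and array, per the submitters' processing notes. The sources used here give neither its version nor its settings. Without the lowest and highest 2% of values both arrays averaged 500.0, so the authors' intensities are on a common scale.

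Of 45101 probe sets the platform annotation named 34958 with 1 gene symbol, 932 with several and 9211 with none, and 34754 matched a current gene number. A gene was represented by its brightest probe set, judged on mean log2 intensity. With 1 array per age no test was possible and differences are given by size, and the number of arrays limits the precision. Probe sets of 1 gene share both arrays and are not replicates. The members, the lists and the settings were chosen with earlier results of these data known. Named genes are all members, the 2 highest and 2 lowest of each related list and, added after their values were seen, relatives and regulators of the members. Each sequence was matched by symbol to RefSeq promoters. The calculation was checked on simulated data, with changes planted only in genes over 16 times the floor. No member lay that high, so the check does not cover their range. Python 3.11.15, pandas 2.3.3 and statsmodels 0.14.6 were used.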

Additional observations from a re-analysis of the deposited data

How the results depend on the processing

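Other floors, a pseudocount, other probe sets, other scalings, a trim of bright genes and other fold limits were tried, 12 settings in all. Junb, Jun, Ier2, Zfp36, Fos and Egr1, the 6 members above the floor on both arrays, kept the sign of their ratio where they were measured, while that of the other 4 is set by the floor in the floored settings. Genes with 1 probe set are untouched by most of the probe-set settings. The count of higher members was 1 instead of 2 with a floor of 200, where Fos reached 1.999-fold, and 1 with a loess correction, where Egr1 had a log2 ratio of 0.99. It was 0 at a 3-fold limit. The count of lower members was 0 instead of 1 with a floor of 200 and at 3-fold, and 2 at 1.5-fold, where Zfp36 joined Klf2. With no floor and a pseudocount of 50 the count of higher members stayed at 2 but Fosb (log2 ratio 1.53) took the place of Egr1 (0.89), and Atf3 had 0.92. Klf2 had -0.44 with a floor of 200. The members' median ran from 0.11 to 0.53. Receptor genes not expected in lens had a 95th percentile of 123, and with that as the floor Klf2 had -1.14. List medians moved by less than the SD between probe sets in 60 of 60 cases, but that SD is for single probe sets and wide for a median. Some list medians changed sign. Feedback inhibitors had 0.18 with a floor of 200. Without _s_at, _x_at and _a_at probe sets the other inducible transcription factors had 0.46 and the inducible genes of other kinds -0.15. Of the list counts 37 of 144 moved by more than 1.5 times, or to or from 0. These cases include the 1.5-fold and 3-fold limits, which change counts by design. Median scaling moved the median of all genes from 0.02 to 0.27 and the counts of all genes from 1494 higher and 1230 lower to 2252 and 792. No paired analysis was possible because each age has 1 sample, and no sample could be left out.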

Other observations

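Without the floor, the member ratios were wider at low intensity. Fosb had a log2 ratio of 2.97 and Atf3 of 1.53, both with P7 values under the floor, and Klf2 had -2.28. The probe sets of Egr2 had unfloored ratios of 0.83 and -2.34, in opposite directions. These values rest on signals under the floor and are given as read.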
